A study of Caenorhabditis elegans with 14 samples.

Results

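The X chromosome genes of Caenorhabditis elegans were taken as all gene models whose deposited coordinate record names chromosome X. There were 2848 of them among 20314 gene models with coordinates (14.0%), and the other 17466, on the 5 autosomes, served together as the comparison. Polymerase density was read for each gene model and for a window of 200 bp over its most upstream transcription start site (TSS), both in RPKM (reads per kilobase, scaled to the depth of the library). The study mapped RNA polymerase II by chromatin immunoprecipitation and sequencing (ChIP-seq) in larvae of the wild-type strain N2 that had hatched with nothing to eat and so halted development in the first larval stage, a state called L1 arrest. It asks where polymerase sits on genes in starvation and what 1 hr of food changes.

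The groups were 6 hr of arrest (antibody S2), 12 hr of arrest (S2, 4H8 and 8WG16), recovery (12 hr of arrest and then 1 hr with E. coli HB101 as food, with the same 3 antibodies), and input chromatin without antibody from each state. All groups share the strain, growth at 20°C and formaldehyde fixation. Each of these 2 states had 2 libraries of 4H8 and 1 each of S2 and 8WG16, and the 6 hr samples came as 1 column with the title of replicate 1. Input came as 1 column for all 4 input samples, so every level against input below rests on the same denominator. Antibody S2 recognises polymerase phosphorylated at serine 2 of the C-terminal repeat, a mark of elongation, 8WG16 binds mostly the unphosphorylated repeat, and 4H8 binds the repeat in more than one state. Whole larvae were used, so fewer cells with polymerase on a gene and less polymerase per cell cannot be told apart.

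The X chromosome of this species is read under its own regime. N2 cultures are almost wholly XX hermaphrodites, in which a condensin-based dosage compensation complex binds both X chromosomes and lowers their transcription to match XO males. The X is also known to be poor in genes expressed in the germline and rich in genes of muscle and neurons. Known X-linked genes, such as xol-1, sdc-2, lin-14 and the yolk gene vit-2, were all among the members.

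X gene models had a median length of 2290 bp, against 1903 bp for autosomal ones, and 34 were chemoreceptor genes, against 1320 on the autosomes. A public symbol was given for 1008 X genes (35.4%) and 6812 autosomal genes (39%). Depth was between 1322000 and 5863000 reads in the ChIP libraries and 11905000 in the input. The median X gene model held between 30.0 and 118 reads in a ChIP library and the median X start window between 2.0 and 9.01. A window with 3 reads corresponds to between 2.56 and 11.3 RPKM, so start densities under that could not be told from 0. These figures cover counting error only.

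The X took a smaller part of the polymerase reads than of the input reads. In the input, 15.9% of reads in gene models fell on X genes, and 3 autosomes held more than X. In every ChIP library each of the 5 autosomes held more than X. S2 at 6 hr of arrest had 13.9% on X and S2 at 12 hr had 12.9%, while the arrest libraries of 4H8 had 13.8% and 14.0% and that of 8WG16 had 15.3%. In recovery the X share was 12.4% for S2, 13.4% and 14.5% for 4H8, and 15.3% for 8WG16. The share was lowest with S2 and closest to input with 8WG16 in both states. Per gene, the input itself differed little between the classes, with a median gene density of 11.23 RPKM on X and 10.9 RPKM on the autosomes.

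The level of a gene against input is given as log2(density + 5) minus log2(input density + 5), so that 0 is the input level. Reads are shared out over the whole genome, so most genes lie below 0 in a ChIP library and only differences between gene classes are read here. Across the 9 ChIP libraries the median level averaged -0.41 ± 0.14 for X genes and -0.34 ± 0.11 for autosomal genes (SD over libraries), and X was below the autosomes in 9 of 9 libraries, by 0.012 to 0.15. Chromosome V lay below X in all of them, so X was not the lowest chromosome on this measure. The gap is small and depends on how input is used: with the authors' own fold enrichment, in which a low input is raised to the median input, the X minus autosomal median was 0.0045, and X was lower in 3 of 9 libraries. No test was made of this gap, since all libraries share 1 input column and the same genes.

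Among genes with a higher read density in the ChIP libraries the gap was wider. The rule of a mean ChIP density of at least 10 RPKM kept 881 X genes and 6359 autosomal genes. The rule does not use the input, so a gene dense in the input can pass without standing above it. Over the 9 libraries the median level of the kept genes averaged -0.0042 on X and 0.18 on the autosomes. These levels come from the same densities as the rule. Their median level in recovery was -0.058 on X against 0.30 on the autosomes for S2, -0.027 against 0.21 and 0.064 against 0.13 for 4H8, and 0.032 against 0.082 for 8WG16. At 12 hr of arrest it was -0.0058 on X against 0.30 on the autosomes for S2, -0.052 against 0.16 and 0.013 against 0.19 for 4H8, and -0.066 against -0.021 for 8WG16. Every autosome stood above X in all 9 libraries. The gap averaged -0.28 for S2 (3 libraries), -0.17 for 4H8 (4 libraries) and -0.048 for 8WG16 (2 libraries). The 8WG16 libraries were also the shallowest and had the fewest autosomal genes over 1 on the log2 scale (472 in recovery and 506 in arrest), and the part of this in the smaller gap was not tested.

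**Figure D1:**
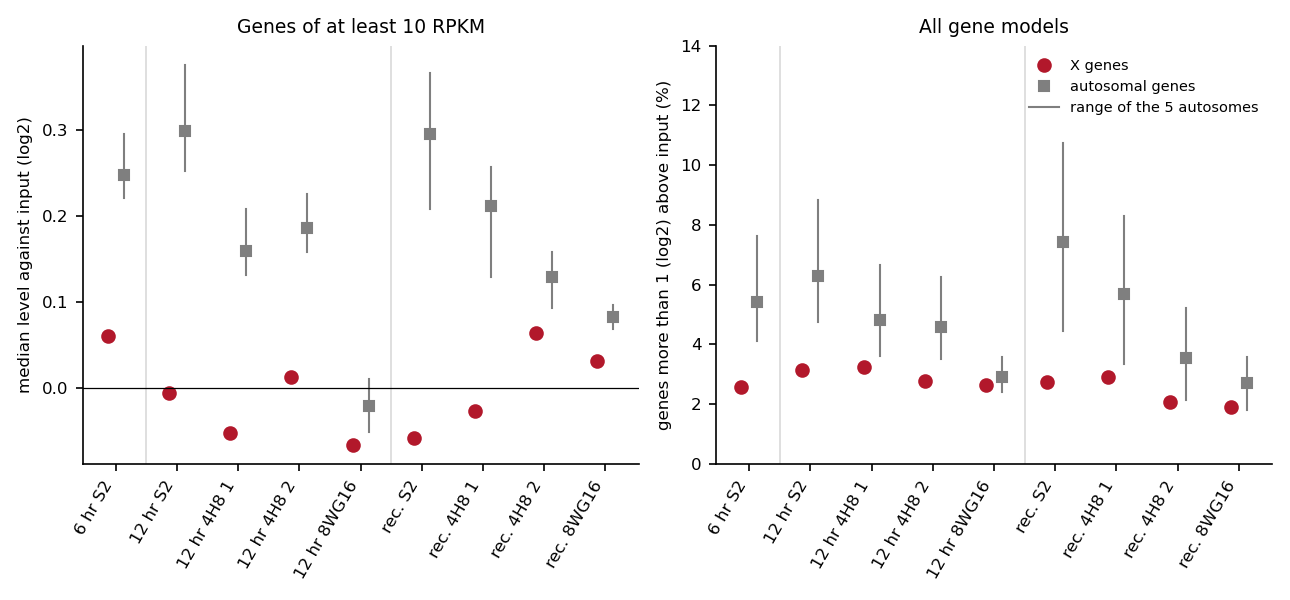
Level against input by library, in order of state (6 hr of arrest, 12 hr of arrest, recovery). Left, median log2 level of X genes (red) and autosomal genes (grey) with a mean ChIP density of at least 10 RPKM. Right, share of all gene models more than 1 above input on the log2 scale. Grey lines span the 5 autosomes. On the left every X point lies under the range of the autosomes. On the right X lies between 1.90% and 3.23% in all 9 libraries.

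Genes far above input were rarer on X. The share of X genes with a level over 1, about 2-fold the input, was 2.74% for S2, 2.91% and 2.07% for 4H8 and 1.90% for 8WG16 in recovery. The autosomal share in those libraries was 7.42% for S2, 5.67% and 3.55% for 4H8 and 2.70% for 8WG16. At 12 hr of arrest the X share was 3.13% for S2, 3.23% and 2.77% for 4H8 and 2.63% for 8WG16, against autosomal shares of 6.28%, 4.82%, 4.56% and 2.90%. X was lower in 9 of 9 libraries, by 2.15 ± 1.35 percentage points (SD), and also in 9 of 9 with the authors' fold enrichment at a threshold of 2. Among genes of at least 10 RPKM it was lower in 8 of 9, the exception being 8WG16 at 12 hr of arrest, with 8.40% of X genes against 7.82% of autosomal genes. Over the 9 libraries the X share spread less (SD 0.44 percentage points) than the autosomal share (SD 1.57).

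Averaged over the 4 libraries of a state, 61 X genes were over 1 in recovery (2.14%), where 4.07% of all genes and 4.39% of autosomal genes were. In arrest 78 X genes were over 1 (2.74%), where 4.09% of all genes and 4.31% of autosomal genes were. X genes made up 7.38% of the genes over 1 in recovery and 9.39% of those in arrest, below their 14.0% share of all gene models. At the very top the deficit was not uniform. The 99th percentile of level was lower on X in 7 of 9 libraries but higher on X in 8WG16 at 12 hr of arrest, 1.91 against 1.71, and near equal in the first 4H8 arrest library, 1.89 against 1.88.

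**Figure D2:**
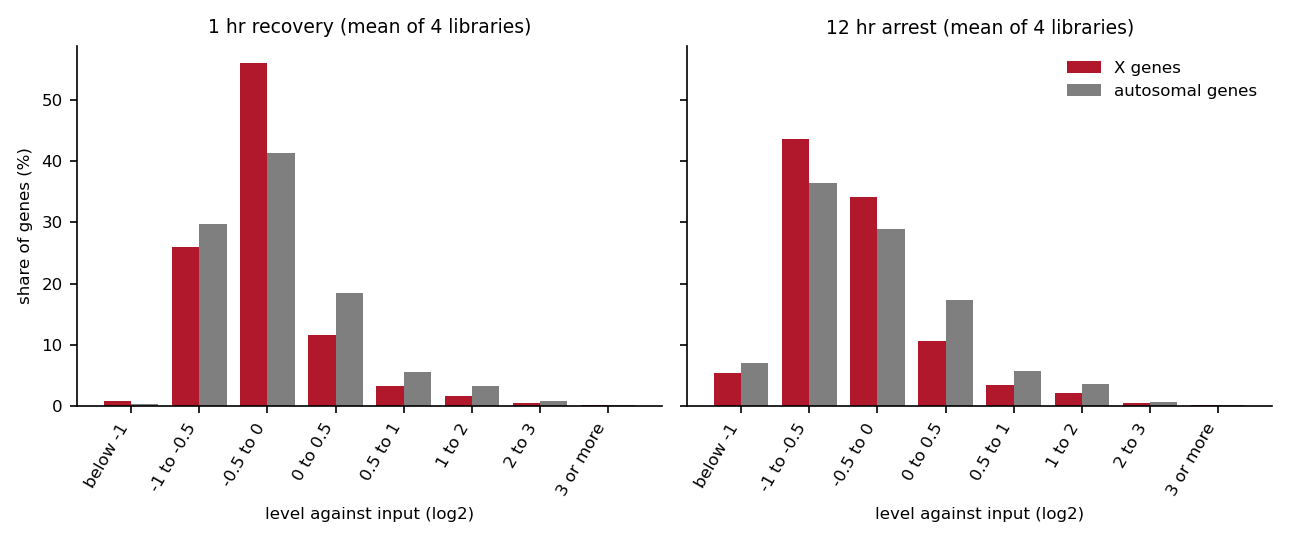
Share of X genes (red) and autosomal genes (grey) in each class of mean level against input, in recovery (left) and at 12 hr of arrest (right), each the mean of 4 libraries. In both states the X bars are taller just below input and shorter in every class between 0 and 3; 17% of X genes lay at or above input in recovery and 16.8% in arrest, against 28.6% and 27.4% of autosomal genes.

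Gene length and position did not set the X apart evenly. In recovery the X minus autosomal median level was -0.089 for models under 1000 bp, 0.0069 for those of 1000 to 2500 bp, -0.082 for 2500 to 5000 bp, -0.13 for 5000 to 10000 bp and -0.071 for longer models. At 12 hr of arrest these differences were -0.15, -0.017, -0.12, -0.17 and -0.097 in the same order of length. Along the chromosome, cut into 5 equal stretches, the median level of X genes lay between -0.40 and -0.29 in recovery and between -0.57 and -0.42 in arrest (means of 4 libraries). The stretch with the lowest median, at X:10644336-14173985 in the WS190 coordinates of the files, also held 21 of the 34 X chemoreceptor genes. It did not hold the fewest genes over 1: 2.64% of its genes were over 1 in recovery and 3.49% in arrest, and the first stretch had the lowest arrest share, 1.95%.

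The X genes with the highest levels were of mixed function. Of 3 X genes over 3 in recovery 2 had a public symbol, and the following are those with one. In recovery the highest were the elongation factor eft-4 (3.92 ± 0.42, SD over 4 libraries), the ribosomal protein gene rpl-25.1 (3.6 ± 0.80), the microRNA genes mir-54 (2.90 ± 0.76) and mir-56 (2.89 ± 0.18), the actin gene act-4 (2.63 ± 0.29), the 14-3-3 gene ftt-2 (2.54 ± 0.31), the S-adenosylmethionine synthetase gene sams-1 (2.37 ± 0.18) and glit-1 (2.20 ± 0.55). In arrest the highest were mir-54 (3.64 ± 1.23), mdl-1 (3.52 ± 0.22), mir-56 (3.41 ± 0.43), ftt-2 (2.94 ± 0.14), the linker histone gene his-24 (2.78 ± 0.56), act-4 (2.60 ± 0.10), osm-11 (2.58 ± 0.53) and the glycolytic enzyme gene gpd-3 (2.55 ± 0.54). The mir-54 and mir-56 models are 24 and 23 bp long, so each read counts for many RPKM in their gene densities. act-4, gpd-3, eft-4 and rpl-25.1 have close copies elsewhere in the genome, and how reads that match several copies were assigned is not given in the sources used here.

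Start against body is given as 5' bias, log2(TSS density + 5) minus log2(gene density + 5), less the same value in the input. It was read only where a model spans 1000 bp or more. Among genes with a mean ChIP density of at least 10 RPKM (674 on X and 4972 on the autosomes), X genes had the lower median bias in all 9 libraries. In recovery the X and autosomal medians were -0.40 and -0.29 for S2, -0.23 and -0.20, and -0.20 and -0.16 for 4H8, and -0.14 and -0.062 for 8WG16. At 12 hr of arrest they were -0.27 and -0.072 for S2, -0.12 and 0.010, and -0.18 and -0.055 for 4H8, and 0.14 and 0.25 for 8WG16. The gap averaged -0.063 ± 0.035 in recovery and -0.14 ± 0.037 in arrest (SD, 4 libraries each). In both classes the start was more heavily loaded in arrest than in recovery.

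Genes with a strong start peak were also fewer on X. A 5' bias more than 1 above input was found in 2.37% of X genes for S2, 1.48% and 1.63% for 4H8 and 2.23% for 8WG16 in recovery, against 9.21%, 6.96%, 5.15% and 5.67% of autosomal genes. At 12 hr of arrest it was found in 5.64% of X genes for S2, 10.5% and 6.68% for 4H8 and 12.3% for 8WG16, against 15.9%, 16.7%, 12.1% and 18.0% of autosomal genes. The input correction matters here, because start windows of X genes were denser in the input (median 11.3 RPKM on X, 9.67 RPKM on the autosomes). Without subtracting the input, the median bias over all models of at least 1000 bp was higher on X in 7 of 9 libraries, by up to 0.10, and with the authors' deposited 5' bias ratio the X minus autosomal median was -0.025 and below 0 in 6 of 9.

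**Figure D3:**
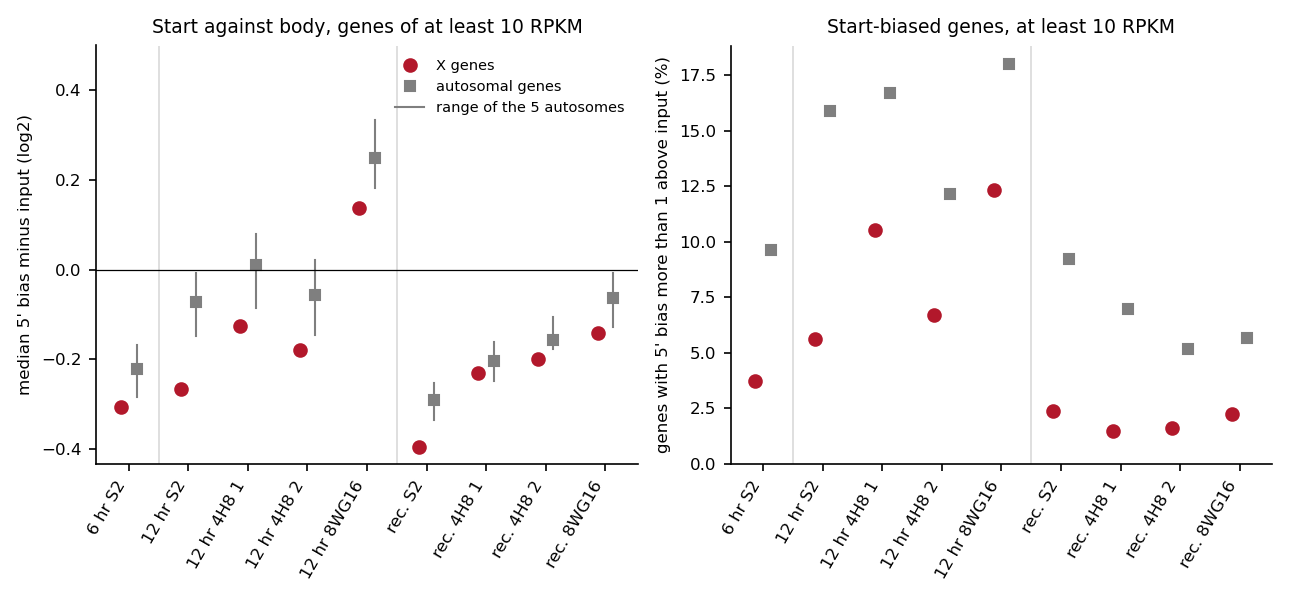
Start against body by library. Left, median 5' bias less that of the input for X genes (red) and autosomal genes (grey) with a mean density of at least 10 RPKM, with the span of the 5 autosomes. Right, share of those genes whose bias exceeds input by more than 1 on the log2 scale. X points lie under the autosomal points in all 9 libraries, and both classes sit lower in recovery than at 12 hr of arrest except that S2 at 6 hr is also low.

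Feeding changed polymerase on about as large a share of X genes as of autosomal genes, but with fewer large rises. Recovery was compared with 12 hr of arrest over 8 libraries with antibody as a term (limma, two-sided, Benjamini-Hochberg over all genes tested, threshold 0.05), on genes with a mean of at least 10 RPKM. Of 2848 X genes 879 passed that filter. Of these, 177 were higher in recovery (20.1%), where 22.9% of all tested genes and 23.3% of autosomal ones were, and 148 were lower (16.8%), where 15.1% of all tested genes and 14.9% of autosomal ones were. The other 554 were not called. Rises of more than 1 on the log2 scale were seen in 18 X genes (2.05% of those tested) against 301 autosomal genes (4.75%), and falls of more than 1 in 33 X genes (3.75%) against 172 autosomal genes (2.72%).

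The split between higher and lower depends on scaling. Of the X calls 54.5% were higher with the authors' scaling, 40.8% after quantile normalization and 25.8% after setting chemoreceptor genes equal, which moved the median change of all genes to -0.11, against 0.083 with the authors' scaling. The calls also lean on weakly bound genes. Of the X genes tested 434 (49.4%) had a mean density below their input, against 32.8% of autosomal genes, and 98 of the 177 higher calls (55.4%) but 21 of the 148 lower calls (14.2%) were among them. Among the 445 X genes at or above input, tested alone, 85 were higher (19.1%), where 23% of all such genes were, and 135 were lower (30.3%), where 22.7% were. For autosomal genes at or above input these shares were 23.4% and 21.9%. In this set the median change was -0.058 on X, below that of the autosomes by 0.059. Without the S2 library of arrest 86 X genes were lower, and without that of recovery 90 were lower. The 177 rises became 112 without the first 4H8 library of arrest, and fewer than 120 also without the S2 library of recovery.

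At start windows falls outnumbered rises on X and elsewhere. Of 954 X windows tested, 62 were higher in recovery (6.50%), where 6.99% of all windows were, and 160 were lower (16.8%), where 21.7% of all and 22.5% of autosomal windows were. The median change was -0.020 on X and -0.17 on the autosomes. That difference was not seen in genes at or above input, whose median change was -0.33 on X, with 22 higher (4.91%) and 150 lower (33.5%) of 448 windows, where 7.66% and 32.2% of all such windows were called. Of the X calls 27.9% were higher with the authors' scaling, 47.1% after quantile normalization and 18.3% after setting chemoreceptor genes equal. Without the second 4H8 library of recovery 28 windows were higher, and without the first of arrest 37.

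The 5' bias fell in 107 of 1018 X genes tested (10.5%), where 14.4% of all tested genes did, and rose in 12 (1.18%), where 1.55% did. The median change was -0.13 on X and -0.21 on the autosomes. These shares also depend on weakly bound starts. Of the X genes tested 613 (60.2%) had a mean start density below input, against 44.2% of autosomal genes. Only 15 of the 107 X falls (14.0%) and 14.1% of the autosomal falls were among them. In genes at or above input at the start the median change was -0.29 on X and -0.34 on the autosomes. Those genes were not tested alone for 5' bias. Of the X calls 10.1% were higher, and 34.1% after quantile normalization. The number of rises fell to 5 or 6 without any 1 of 5 libraries (S2 of either state, the first 4H8 of either state, or the second 4H8 of recovery). Of 557 X genes tested for both densities, 16 were higher in both (2.87%, against 6.99% of 4047 autosomal genes) and 59 were lower in both (10.6% against 9.86%). Over the gene alone 83 were higher (14.9% against 14.4%) and 55 lower (9.87% against 6.97%), and at the start alone 13 were higher (2.33% against 0.964%) and 52 lower (9.34% against 12.6%). Another 6 were higher over the gene and lower at the start (1.08% against 1.70%). None was lower over the gene and higher at the start. Over the gene, the change with 4H8 was called different from that with S2 at 1 of 881 X genes, where 0.0276% of all tested genes were (limma interaction). S2 had 1 library per state, so the spread in this test came from the 4H8 libraries. The gene, mir-84, held between 0 and 3 reads in each of these libraries.

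**Figure D4:**
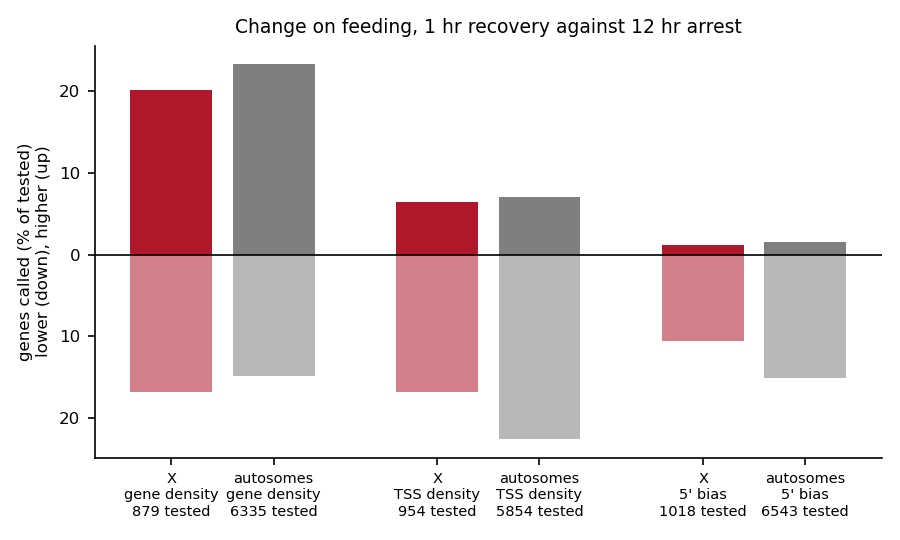
Share of tested genes called higher (up) and lower (down) in recovery against 12 hr of arrest, for X genes (red) and autosomal genes (grey), by measure. The bars for gene density are alike in height, 20.1% up and 16.8% down on X. At start windows and for 5' bias the downward bars are shorter on X, 16.8% and 10.5%, than on the autosomes.

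Genes of protein synthesis were among the largest rises on X. rpl-25.1 (F55D10.2, X:4715147-4715772) encodes a protein of the large ribosomal subunit. Its gene density in recovery was 926 RPKM for S2, 781 and 499 RPKM for 4H8 and 265 RPKM for 8WG16, against 130 RPKM for S2, 117 and 115.1 RPKM for 4H8 and 72.0 RPKM for 8WG16 in arrest. The lowest recovery library lay above the highest arrest library, and the change was 2.34 ± 0.21 (log2 ± standard error, limma adjusted p = 0.000105). The other ribosomal protein gene on X, rpl-11.2 (F07D10.1), had 315, 326, 259 and 194 RPKM in the recovery libraries of S2, 4H8, 4H8 and 8WG16, against 61.8, 60.3, 57.3 and 46.6 RPKM in those of arrest, a change of 2.16 ± 0.14. Where 4 values of a state follow each other below, they stand in that order of libraries. In arrest rpl-11.2 was at or under its input of 61.9 RPKM. Both X ribosomal protein genes rose, where 22.9% of all tested genes did. On the autosomes 78 of 80 tested ribosomal protein genes rose, with a median change of 1.80.

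eft-4 (R03G5.1, X:7823594-7825711) encodes translation elongation factor 1 alpha. It had 528, 577, 416 and 299 RPKM in the recovery libraries of S2, 4H8, 4H8 and 8WG16, against 121, 114, 114 and 72.0 RPKM in those of arrest, a change of 2.04 ± 0.16 (limma adjusted p = 5.66e-05). Its groups did not overlap, and its start window also rose, by 1.67 ± 0.27. Of the other translation genes on X, ife-2, which encodes a cap-binding protein, rose by 0.38 ± 0.097, a call that was lost without the first 4H8 library of arrest or either 8WG16 library. On the autosomes 42 of 56 tested translation genes rose and 1 fell. rpl-25.1, rpl-11.2 and eft-4 have close paralogues on autosomes, so their reads may be shared with those copies.

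Several genes next to or on top of each other moved together, and their values cannot be separated. kqt-2 (M60.5, X:8243072-8246310), a potassium channel gene of the KCNQ type, lies inside endu-2 (M60.2, X:8241997-8247808) on the opposite strand. kqt-2 had 77.1, 72.0, 39.1 and 39.7 RPKM in the recovery libraries of S2, 4H8, 4H8 and 8WG16, against 5.93, 5.85, 6.52 and 8.96 RPKM in those of arrest, where all 4 values lay below its input of 13.1 RPKM. Its change was 2.34 ± 0.22 and that of endu-2 was 2.21 ± 0.21. ChIP reads carry no strand, so the density belongs to the shared stretch, although the start window of kqt-2 rose (1.63 ± 0.30) and that of endu-2 was not called (0.44 ± 0.32, limma adjusted p = 0.34). glit-1, a gene for a gliotactin-like membrane protein, ends 97 bp upstream of rpl-25.1 on the same strand and rose by 1.86 ± 0.17, with its start window not called (0.55 ± 0.28).

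pgp-14 (F22E10.3, X:12744643-12749501), a P-glycoprotein transporter gene, had 114, 107, 64.04 and 68.8 RPKM in the recovery libraries of S2, 4H8, 4H8 and 8WG16, against 13.8, 13.4, 17.4 and 15.6 RPKM in those of arrest. In arrest it sat near its input of 17 RPKM, and its change was 2.18 ± 0.19 (limma adjusted p = 9.35e-05). It overlaps nhr-27, which was too low to be tested. pgp-3, of the same family, rose by 1.03 ± 0.12. asp-3, an aspartic protease gene of the cathepsin D kind, had 64.2, 80.9, 78.4 and 62.3 RPKM in recovery against 22.5, 22, 22.1 and 21.5 RPKM in arrest, a change of 1.49 ± 0.11. Its relative asp-4 went the other way, with 10.7, 13.4, 13.4 and 12.1 RPKM in recovery against 25.9, 25.2, 27.5 and 28.1 RPKM in arrest, a change of -0.87 ± 0.085. Of 15 tested intestinal genes on X, 5 rose and 3 fell, with a median change of 0.28, where 22.9% and 15.1% of all tested genes did. Of 46 tested on the autosomes 17 rose and 7 fell.

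Single enzymes and regulators also rose. puf-9, an RNA-binding protein gene of the Pumilio family, rose by 1.32 ± 0.16, with 91.7, 92.8, 56.2 and 45.3 RPKM in recovery against 30.4, 26.4, 24.0 and 18.4 RPKM in arrest. sams-1, which makes the methyl donor S-adenosylmethionine, rose by 0.88 ± 0.16, and ugt-46, a UDP-glucuronosyltransferase gene, by 1.19 ± 0.10. dhs-25, a short-chain dehydrogenase gene, was a case of opposite moves at start and body. Over the gene it rose by 1.07 ± 0.13, while its start window fell by 0.87 on the log2 scale, with 30.9, 92.2, 61.4 and 49.2 RPKM at the start in recovery against 72.6, 154, 77.5 and 133 RPKM in arrest.

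Large falls included genes of transcription factors and energy sensing. mdl-1 (R03E9.1, X:6742348-6743857) encodes a basic helix-loop-helix factor of the Mad type, which pairs with Max-like partners. It had 66.0, 102.5, 65.4 and 95.7 RPKM in the recovery libraries of S2, 4H8, 4H8 and 8WG16, against 299, 359, 337 and 436 RPKM in those of arrest, a change of -2.07 ± 0.17 (limma adjusted p = 7.07e-05). At its start window it had 91.2, 229, 201 and 219 RPKM in recovery against 311, 848, 602 and 1010 RPKM in arrest. At 6 hr of arrest the S2 library gave 211 RPKM over the gene. mxl-3 (F46G10.6), a Max-like factor gene, fell by 1.53 on the log2 scale (standard error 0.13), with 25.7, 27.3, 19.4 and 37.4 RPKM in recovery against 87.6, 79.8, 78.6 and 103.7 RPKM in arrest. In both genes every recovery library lay below every arrest library. The forkhead gene fkh-9 changed by -1.25 ± 0.12 and the nuclear receptor gene nhr-14 by -1.18 ± 0.12. Of 13 tested nuclear receptor genes on X, 3 fell and 1 rose, where 15.1% and 22.9% of all tested genes did, and on the autosomes 10 of 46 fell and 5 rose. The calls of nhr-35 and nhr-48, the other 2 that fell, were lost without either S2 library, and that of nhr-48 also without 3 of the 4 4H8 libraries.

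X carries 5 listed subunit genes of the AMP-activated kinase, the sensor of low cellular energy. Of the 3 that were tested 2 fell, where 15.1% of all tested genes did, and aakg-2 was not called (0.14 ± 0.13). aakg-4 (T01B6.3, X:2314912-2319327), for a gamma subunit, had 11.4, 10.9, 12.9 and 11.8 RPKM in recovery against 61.1, 56.6, 73.7 and 62.5 RPKM in arrest. In recovery it lay under its input of 18.0 RPKM in all 4 libraries, and the change was -2.03 ± 0.11 over the gene and -2.0 ± 0.28 at the start. aak-2 (T01C8.1), for a catalytic alpha subunit, changed by -1.08 ± 0.090 over the gene, with densities of 10.4, 12.3, 13.8 and 13.8 RPKM in recovery and 29.2, 35.8, 33.2 and 30.2 RPKM in arrest, while its start window was not called (-0.38 ± 0.28). tps-1, for a trehalose synthesis enzyme, changed by -0.92 ± 0.14. In the list of lysosome, energy and fuel metabolism genes 18 X genes were tested, with a median change of -0.081. Of these 5 rose and 7 fell, where 22.9% and 15.1% of all tested genes did. On the autosomes 25 of 93 rose and 28 fell.

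All 4 tested histone genes on X were called, where 38% of all tested genes were, and 3 of them fell, where 15.1% did. The linker histone genes his-24 and hil-3 changed by -1.08 ± 0.17 and -1.10 ± 0.15. his-24 had 71.0, 113, 91.2 and 114 RPKM in the recovery libraries of S2, 4H8, 4H8 and 8WG16, against 136, 188, 204 and 355 RPKM in those of arrest, without overlap. With the 4H8 libraries alone the call of his-24 was lost (limma adjusted p = 0.065). his-71, for the replication-independent histone H3.3, changed by -0.72 ± 0.14. his-38, a histone H4 gene with many near-identical autosomal copies, rose by 0.96 ± 0.18. On the autosomes 12 of 26 tested histone genes rose and 3 fell.

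**Figure D5:**
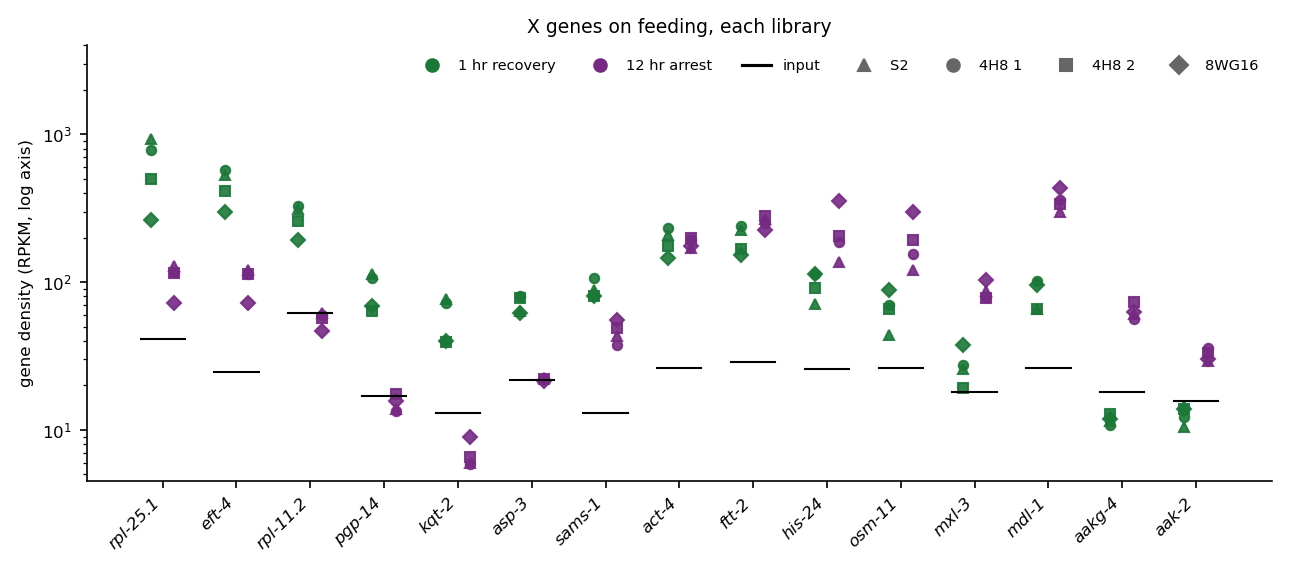
Gene density of 15 X genes in each library on a log axis, recovery in green to the left and 12 hr of arrest in purple to the right of each gene. Symbols mark the antibody and the black bar marks the input. rpl-25.1 reaches 926 RPKM in recovery and mdl-1 436 RPKM in arrest. act-4 and ftt-2 overlap or nearly touch between states, whereas the states are apart for eft-4, kqt-2, mdl-1 and aakg-4.

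Other genes that fell by more than 1 had varied roles. osm-11, for a secreted co-ligand of Notch, changed by -1.41 ± 0.15 and the galectin gene lec-9 by -1.22 ± 0.097. zig-3, for a secreted immunoglobulin-domain protein, changed by -1.13 ± 0.21, and dct-1, for a mitophagy receptor, by -1.12 ± 0.13. With the 4H8 libraries alone the call of zig-3 was lost (limma adjusted p = 0.065). Larger falls were in genes without a public symbol in the files. C53B7.3 had 14.1, 14.6, 18.9 and 21.1 RPKM in recovery against 96.0, 99.4, 133 and 163 RPKM in arrest, a change of -2.51 ± 0.14, the largest fall on X. C34D10.2, named unk-1 in RefSeq, changed by -2.13 ± 0.12 and M60.4 by -2.11 ± 0.093. These 3 genes fall outside the rule for named genes and were chosen after their values were seen. M60.4 lies on the same stretch of X as endu-2 and kqt-2 (M60.4 ends at X:8236255), which moved the opposite way. The M60.4 model overlaps that of K02A6.3 (change -1.11).

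Of the X-linked genes listed for sex determination and dosage compensation only 4 were tested over the gene. None of these was called, where 38% of all tested genes were, and 4 genes are too few to read this as a trait of the list. The list holds xol-1, the switch whose repression gives the hermaphrodite fate, its repressors sex-1, fox-1 and ceh-39, and sdc-1 and sdc-2, whose products bring the compensation complex to X. Of the 6, 5 lay below input in both states, and fox-1 lay at 0.37 in recovery and 0.18 in arrest. None had a level over 1 in either state, and their median level was -0.34 in recovery and -0.47 in arrest. xol-1 had 3.17, 3.25, 5.64 and 7.61 RPKM in recovery against 3.27, 5.10, 4.96 and 5.38 RPKM in arrest, under its input of 10.96 RPKM, and sdc-2 had between 6.55 and 10.1 RPKM in recovery and between 6.88 and 8.28 RPKM in arrest. Neither could be tested. Of the 4 tested, with changes from 0.11 (sdc-1) to 0.19 (fox-1), none was called. The signs of sdc-1, fox-1, sex-1 and ceh-39 turn under the chemoreceptor scaling. At its start window ceh-39 fell by 1.17 on the log2 scale (limma adjusted p = 0.0025), and its 5' bias fell by 1.30 (limma adjusted p = 0.0076). The start window of sdc-1 held 215 RPKM in input, 324 RPKM in S2 at 6 hr of arrest and 168 RPKM in the first 4H8 arrest library. In every other library it held no more than 20.0 RPKM, so it was not read.

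The yolk genes vit-1 to vit-5, which adult intestine expresses, lay below input in every state. Their gene densities were between 0.82 and 16.03 RPKM in recovery and between 0.69 and 8.77 RPKM in arrest, and none passed the filter for a test. vit-3, vit-4 and vit-5 are near-identical, so their reads may be shared. The start window of vit-2 was called higher (0.78 ± 0.30, limma adjusted p = 0.044), with 34.0 RPKM at most, close to its input of 32.3 RPKM.

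Over the gene, cuticle genes on X were called higher and not lower. Of 38 collagen and cuticle genes on X 21 were tested, of which 13 rose and none fell, with a median change of 0.53, where 22.9% of all tested genes rose. On the autosomes 66 of 120 rose and 3 fell. At start windows 18 cuticle genes on X were tested, of which 1 was higher and 3 were lower, where 6.99% and 21.7% of all windows were. col-41 rose by 0.90 ± 0.12, col-183 by 0.80 ± 0.17, col-185 by 0.75 ± 0.22 and col-19, an adult-stage collagen gene, by 0.72 ± 0.11. For col-19 the densities were 14.6, 19.8, 26.3 and 26.9 RPKM in recovery against 8.10, 9.69, 10.7 and 16.6 RPKM in arrest, with an input of 30.7 RPKM. Of the 13 that rose, 11 had a mean level below input in recovery and 13 in arrest. col-41 lay above its input of 33.7 RPKM in all 4 recovery libraries (55.7, 60.1, 55.03 and 45.4 RPKM). The col-41 model overlaps that of ucr-2.2 (change 0.73), so this density cannot be assigned to col-41 alone. The call of col-185 was lost without either S2 library or the first 4H8 library of arrest. With the 4H8 libraries alone the calls of col-183 and col-185 were lost.

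In the neuronal lists the share of tested genes called lay near that of all tested genes or above it, in small numbers. Of 36 neuropeptide genes 19 were tested, of which 4 rose and 3 fell (36.8% called, where 38% of all tested genes were). flp-11 rose by 0.62 ± 0.15, nlp-61 by 0.62 ± 0.17 and nlp-45 by 0.56 ± 0.16, and flp-28 changed by -0.71 ± 0.10. The nlp-45 model overlaps T01B6.1 and that of flp-28 overlaps W07E11.1 (change -0.46), so reads in the overlaps cannot be told apart. The calls of nlp-61 and nlp-45 were lost without either 8WG16 library or the first 4H8 library of arrest, and that of nlp-45 also without the second 4H8 library of recovery. The call of flp-11 was lost with no filter, with the 4H8 libraries alone and with chemoreceptor scaling. Of 56 receptor and ion channel genes only 3 passed the filter, of which kqt-2 rose. Of 8 tested synapse and axon genes 4 rose, where 22.9% of all tested genes did, and none fell: mec-7, a tubulin gene of touch neurons, by 0.52 ± 0.10, unc-10 by 0.49 ± 0.13, the gap junction gene unc-9 by 0.37 ± 0.10 and the axon guidance receptor gene sax-3 by 0.35 ± 0.088. After chemoreceptor scaling none of these 4 was called, and each but mec-7 was also lost when 1 library was left out (the first 4H8 of arrest for unc-10, the S2 of arrest or the first 4H8 of recovery for unc-9, and either S2 or the first 4H8 of arrest for sax-3). None of 14 autosomal genes of this list was called. The mec-7 model overlaps that of deg-1, so reads in the overlap cannot be told apart.

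Of 14 tested muscle genes on X none rose and 2 fell, against 5 and 5 of 36 on the autosomes, where 22.9% and 15.1% of all tested genes did. unc-27, for a troponin I, changed by -0.50 ± 0.12, a call lost without either S2 library, and the myosin light chain gene mlc-2 by -0.41 ± 0.14, a call lost without any of 7 of the 8 libraries, the first 4H8 library of recovery excepted. The mlc-2 model overlaps C36E6.2 (change 0.39) and that of act-4 overlaps M03F4.6 (change 0.32), so reads in the overlaps cannot be told apart. The muscle list had a median level of 0.14 in recovery and 0.042 in arrest, above the X median in both. act-4 was as dense in recovery (210, 232, 176 and 146 RPKM for S2, 4H8, 4H8 and 8WG16) as in arrest (171, 193, 198 and 175 RPKM), with a change of 0.035 ± 0.16, which was -0.51 and called after quantile normalization. At its start window it fell, with 127, 247, 225 and 234 RPKM in recovery against 200, 436, 342 and 770 RPKM in arrest, a change of -0.93 ± 0.24.

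MicroRNA genes, which are short and precise only at their start windows, showed 1 rise and 1 fall among 27 tested gene models. Among all tested gene models 22.9% rose and 15.1% fell. At the start windows 5 of 23 were higher and 3 lower, where 6.99% and 21.7% of all windows were. The 3 that fell there were the neighbours mir-54 (-0.81 ± 0.24), mir-55 and mir-56 (-0.91 ± 0.24), which lie side by side, so that neighbouring windows may share reads. The mir-73 model, 23 bp long, was called lower (-1.30 ± 0.37) with 0, 70.7, 62.0 and 34.4 RPKM in recovery against 31.9, 81.2, 97.9 and 108 RPKM in arrest. That call was lost without either S2 or either 8WG16 library. mir-62 rose by 0.87 ± 0.28, a call lost without either 8WG16 library, the first 4H8 library of arrest or either 4H8 library of recovery. It overlaps the model of ugt-50 (change 0.29).

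The remaining lists were small, and 38% of all tested genes were called. Of 4 tested insulin pathway genes the kinase genes akt-2 (-0.51 ± 0.12) and pdk-1 (-0.46 ± 0.098) fell, where 15.1% of all tested genes did. The call of akt-2 was lost without either S2 library. On the autosomes 7 of 19 tested genes of this list rose and 4 fell, with a median change of 0.29. Of 11 tested C-type lectin and immune genes 2 rose and 3 fell (45.5% called), with cnc-8, for an antimicrobial peptide of the caenacin family, up by 0.89 ± 0.10, and abf-5 and abf-6, for peptides of the antibacterial factor family, at -0.86 ± 0.087 and -1.05 ± 0.17. Both abf genes lie inside the model of nhr-27. In the hedgehog-related list grd-7 rose by 0.50 ± 0.12 of 4 tested, a call lost with no filter, with 4H8 alone and with chemoreceptor scaling. In the homeobox list ceh-21 rose by 0.33 ± 0.10 of 6 tested. The call of ceh-21 was lost without any of 7 of the 8 libraries, the first 4H8 library of recovery excepted. None of 7 tested heterochronic genes was called over the gene. Of 126 autosomal genes in the germline list 48 were tested and 27 rose. That list held 2 X genes, cpg-19 and puf-9, of which puf-9 alone was tested. Membership in the list does not show that a gene acts in the germline.

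Some start windows changed where the gene density was not called or was too low to be tested. tag-289 had 35.8, 53.3, 47.8 and 26.5 RPKM at its start in recovery against 109, 177, 151 and 175 RPKM in arrest, a change of -1.80 ± 0.25, while its gene density stayed under 11 RPKM in all 8 libraries. rbg-1, for a subunit of a Rab GTPase-activating protein, changed by -1.60 ± 0.25 at the start and by -0.15 ± 0.11 over the gene. atg-16.1, for an autophagy protein, changed by -1.73 ± 0.29 at the start and was not tested over the gene. fkh-9 changed by -1.74 ± 0.32 at the start and was lower over the gene too. In these 4 genes the start window was lower in recovery in each of the 4 antibody and replicate pairs. Among genes with a public symbol and higher in all 4 pairs, the largest start rise besides the translation genes and kqt-2 was at egl-17, a fibroblast growth factor gene (1.16 ± 0.36), a call lost without the 8WG16 library of arrest, where its window held no read.

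Among genes with a public symbol in the files, the 5' bias fell most at dhs-25 (-1.94 ± 0.25), tag-289 (-1.93 ± 0.22), gosr-2.1 (-1.75 ± 0.32), lin-15A (-1.63 ± 0.30) and rbg-1 (-1.45 ± 0.23). lin-15A overlaps lin-15B, with which its reads are shared. Of the 12 rises 7 were in genes with a public symbol. The largest of these, among those higher in all 4 pairs, were sma-9 (1.17 ± 0.28), lec-9 (1.08 ± 0.28), lin-14 (1.06 ± 0.28), erd-2 (0.82 ± 0.28) and the apical junction gene ajm-1 (0.81 ± 0.25). The largest rise of all was at C53B7.3 (1.42 ± 0.32), which also had the largest fall in gene density. Its start window fell too (-1.09 ± 0.31, limma adjusted p = 0.0056), by less than the gene. At lec-9, erd-2 and ajm-1 the gene density fell and the start window was not called (-0.14, 0.41 and 0.52). sma-9 and lin-14 span 13686 and 14783 bp. For sma-9 the body fell (-0.77 ± 0.11) while the start was not called (0.40 ± 0.30), and for lin-14, which sets the timing of larval fates, the start rose (0.70 ± 0.27) while the body was not called (-0.35 ± 0.14). The calls of lec-9, lin-14, erd-2 and ajm-1 were each lost without at least 1 library: either S2 or the second 4H8 of recovery for lec-9, either S2 or either 8WG16 for lin-14, any but the second 4H8 of arrest for erd-2, and any but the S2 libraries and the second 4H8 of arrest for ajm-1.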

How the data were processed

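For gene models and 200 bp start windows, the authors deposited RPKM (reads per kilobase, scaled to library depth) and a ratio (fold over input), in which inputs under the median input were raised to it, per the file headers. The aligner is not given in the sources used here. Depth was recovered from the steps of the low RPKM values: between 89.7% and 98.4% of ChIP gene densities and between 90.4% and 91.9% of start densities were whole reads within 0.1 read. The 9 ChIP columns and the 1 input column were joined to the WS190 coordinates by sequence name, and 455 X genes without a symbol took one from RefSeq.

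Values were analysed as log2(RPKM + 5), which understates changes of low genes. Recovery was compared with 12 hr of arrest with limma 3.58.1 in R 4.3.3 (lmFit, eBayes with trend, antibody as a term, two-sided) over all genes with a mean of at least 10 RPKM, with Benjamini-Hochberg adjustment over them. For 5' bias either density had to reach this. Scripts were tested on simulated data. Summaries used pandas 2.3.3 and numpy 2.4.6 under Python 3.11.15, with figures from matplotlib 3.10.9. Whether samples of different antibodies came from separate cultures is not stated, so p-values may measure partly technical spread.

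Named genes were those with a public symbol among the 10 largest rises and falls over the gene, the 5 largest at the start and in 5' bias (same direction in 4 of 4 pairs), the 8 highest levels per state, and up to 4 called members per list. The members and lists were chosen with earlier results of these data known. Planned promoter motifs were not analysed here. The alternatives were other pseudocounts, filters, scalings, a replicate block, 4H8 alone, genes at or above input, and leaving out each library.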

Additional observations from a re-analysis of the deposited data

Results flagged for a closer look

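The change on feeding differed between antibodies at 1 of 881 X genes, where 0.0276% of all tested genes did, by a test of the difference itself (limma interaction, Benjamini-Hochberg over 7240 genes). S2 had 1 library per state, so the test takes the spread of the 4H8 libraries for S2 as well. It was the microRNA gene mir-84 (X:16022368-16022389), a member of the let-7 family. Its change was 2.47 with 4H8 and -2.94 with S2, a difference of 5.41 ± 0.34 (limma adjusted p = 0.019). The model is 22 bp long. In recovery it held 0 reads with S2, 2 and 3 reads with 4H8 and 1 read with 8WG16, against 3 reads with S2, 0 and 0 reads with 4H8 and 0 reads with 8WG16 in arrest. Densities built on so few reads move by many RPKM with 1 read, and the part of this in the call was not tested. At its start window mir-84 was not called in this comparison. No X gene was called for start density or 5' bias by limma. An unadjusted p under 0.05 was found at 24 of 940 X genes for start density (2.55%) and 31 of 1015 for 5' bias (3.05%). On the autosomes these shares were 2.87% and 4.03%.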

How the results depend on the processing

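The counts of called X genes depended on the filter, the scaling and the number of libraries, and the cause of a moved value was not tested. Some settings also used fewer genes or libraries. Over the gene, 177 of 879 tested X genes rose (20.1%) and 148 fell (16.8%) in recovery against arrest. With a minimum of 20 RPKM only 270 X genes were tested, of which 74 rose (27.4%) and 75 fell (27.8%), where 31.1% and 22.9% of autosomal genes did. The counts were smaller but the share of X genes called was larger, 55.2% against 37.0%. The median change of X minus autosomal genes was -0.046 against 0.027. With the 4H8 libraries alone the counts were 61 and 70. Scaling on chemoreceptor genes gave 68 rises. Genes at or above input gave 85 rises and a median difference of -0.059. At the start window, 62 rose and 160 fell, with a median difference of 0.154. No filter, which tests all 2848 X genes, gave 13 and 50 with 0.060. A minimum of 20 RPKM, which tests 3168 windows of all chromosomes in place of 6808, gave 26 rises with 0.061. Quantile scaling gave 99 falls. 4H8 alone gave 21 and 66, chemoreceptor scaling 38 rises, and genes at or above input 22 rises with 0.0059. In 5' bias, 12 rose and 107 fell. A pseudocount of 1 gave 1 and 71, a pseudocount of 20 gave 21 rises, no filter 3 and 36, quantile scaling 31 and 60, and 4H8 alone 2 and 31. Without the filter 16323 genes of all chromosomes were tested in place of 7561.

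The median level of X minus autosomal genes, -0.071, was -0.18 over genes of at least 10 RPKM and 0.0045 with the authors' deposited ratio, where it was below 0 in 3 of 9 libraries. The difference in start against body, -0.074, was -0.025 with that ratio. The difference in the percentage of genes past a level of 1, -2.15 points, was -4.66 over genes of at least 10 RPKM, where it was below 0 in 8 of 9 libraries.

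Leaving out 1 library at a time moved these values between -0.0786 and -0.0610 for level, between -0.0807 and -0.0680 for start against body, and between -2.39 and -1.83 points for genes past 1. Over the gene, rises ranged between 112 and 161, falls between 86 and 140, and the median difference between -0.0022 and 0.035. At the start, rises ranged between 28 and 65, falls between 118 and 150, and the difference between 0.099 and 0.195. In 5' bias, rises ranged between 5 and 11, falls between 77 and 111, and the difference between 0.068 and 0.116.

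With a replicate block on the 4H8 numbers, 213 X genes rose and 164 fell over the gene, 63 and 165 at the start, and 10 and 106 in 5' bias. Deviations of same-numbered 4H8 libraries correlated at 0.35, 0.24 and 0.17 over the gene, at the start and in 5' bias, but with 2 pairs and labels that do not say what the number marks, the samples share only a number.

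Of 1463 values of single genes under an alternative, 1279 kept direction and side of the threshold, 156 lost the call, 14 gained one and 14 changed sign. Of 79 named calls, 45 held under every alternative run. Changes of sign over the gene were -0.012 for sex-1, -0.085 for sdc-1, -0.16 for act-4, -0.0025 for fox-1, -0.064 for ceh-39 and -0.089 for lin-15A with chemoreceptor scaling. With 4H8 alone they were -0.053 for sdc-1 and -0.010 for ceh-39. With 1 library left out, sdc-1 lay between -0.037 (without either 8WG16 library) and 0.20. act-4 was at -0.51 with quantile scaling (limma adjusted p = 0.0053), and with 1 library left out it lay between -0.051 (without either S2 library) and 0.13, with -0.046 without the first 4H8 library of recovery. In a 200 bp window, 3 reads correspond to between 2.56 and 11.3 RPKM. Start windows near the filter therefore rested on few reads in the shallower libraries, and small changes there could be missed.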
